A study of Mus musculus with 34 samples.

Results

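The mouse CD209 family consists of 7 C-type lectin genes, Cd209a to Cd209g, that share their ancestry with human DC-SIGN (CD209). All 7 genes, found by symbol, were among the 32098 genes listed for each library. They were followed in RNA of the stromal vascular fraction (SVF), the non-adipocyte cells pelleted from fat after digestion with collagenase. The fat was visceral white adipose tissue of male C57BL/6J mice, which started at 6 weeks of age on a diet with 60% of kcal from fat (HFD, D12492) or on a control diet (CHOW, D12450B or D12450K, with no record of which mouse received which). There were 4 CHOW and 6 HFD libraries after 8 weeks of feeding (14 weeks of age), 5 and 6 after 20 weeks (26 weeks of age), and 7 and 6 after 34 weeks (40 weeks of age), 34 in all. All mice were fasted for 6 hours before tissue was taken, and the pellet passed through an erythrocyte lysing buffer. The SVF is a mixture of cell types, so fewer cells of a type and less RNA per cell cannot be told apart in these values. The labels number the libraries of a group without saying what separates them, so the spread between them may be in part technical. The genes were chosen by family name and all paralogs were kept, but the family itself was selected on TPM values of these libraries, and which of its differences led to it is not recorded. The differences between diets and times are therefore given for the members as a description, with the threshold passed or not and no p-value, and nothing about the family is inferred from them.

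C-type lectins of this family are type II membrane proteins whose carbohydrate recognition domain binds mannose- and fucose-bearing glycans in a calcium-dependent way. They capture microbes and host glycoproteins, act as adhesion receptors, and are found mainly on dendritic cells and tissue macrophages. Cd209a encodes the receptor usually called mouse DC-SIGN (CIRE), a marker of dendritic cells and of monocyte-derived dendritic cells. Cd209b encodes SIGN-R1, known from marginal zone macrophages of the spleen and sinus macrophages of lymph nodes, where it takes up bacterial polysaccharides. Cd209d encodes SIGN-R3, a receptor for mycobacterial glycans. Cd209c, Cd209e, Cd209f and Cd209g encode the less studied SIGN-R2, SIGN-R4, SIGN-R8 and SIGN-R7. In adipose tissue, resident macrophages along vessels carry scavenger and hyaluronan receptors such as CD163 and LYVE1, whereas macrophages that gather around dying adipocytes in obesity carry lipid-handling genes such as Trem2.

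The 7 genes lie within 394.3 kb of mouse chromosome 8 (GRCm38 positions from gencode M21). Cd209a (chr8:3743397-3748984, ENSMUSG00000031494) is at one end, followed by Cd209e (chr8:3847965-3854309), Cd209d (chr8:3871824-3878555), Cd209b (chr8:3917655-3926844) and Cd209c (chr8:3940222-3954746), all on the minus strand. Cd209f (chr8:4102787-4105835, minus strand, ENSMUSG00000051906) and Cd209g (chr8:4134098-4137707, plus strand, ENSMUSG00000079168) are at the other end and are transcribed away from each other. Their longest annotated coding sequences ran from 534 bases in Cd209c to 975 in Cd209b. The coding sequences of Cd209f and Cd209g were 89.2% identical over 582 aligned bases and shared an unbroken run of 178 bases. The other 20 pairs were 62.3% to 78.6% identical over their aligned bases, and their longest shared run was 26 bases. Of the 31-base words in the protein coding transcripts of Cd209f, 39.45% also occurred in Cd209g, and 43.02% of those of Cd209g occurred in Cd209f. No word of that length was shared among the other 5 genes. Salmon, which assigned the reads, would have to divide any that fit both Cd209f and Cd209g, so the split between these 2 genes is uncertain. The other 5 are told apart from the rest of the family at this word length. Transcripts outside the family were not searched, and the words are those of gencode M21, whereas Salmon used gencode M10.

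Cd209f and Cd209g were also alike around their RefSeq start sites. RefSeq promoter windows (GRCm38.p6, 250 bases before to 50 after each start, read along the gene) were found for all 7 members. The windows of Cd209f (chr8:4105715-4106014, minus strand) and Cd209g (chr8:4134486-4134785, plus strand) held an identical stretch of 180 bases, and 80.9% of their alignment was identical, against 41.7% to 56.1% in the other 20 pairs. The RefSeq start of Cd209g lies inside the gene as gencode M21 annotates it, and so does its whole window. The windows are printed here because these 2 genes had nearly the same profile over the libraries, with those of Cd209a (chr8:3748935-3749234, minus strand) and Cd209b (chr8:3926792-3927091, minus strand) for comparison. Capitals mark TTCCGG, the core of ETS factor sites, and TGAGTCA, the AP-1 consensus.
Cd209f: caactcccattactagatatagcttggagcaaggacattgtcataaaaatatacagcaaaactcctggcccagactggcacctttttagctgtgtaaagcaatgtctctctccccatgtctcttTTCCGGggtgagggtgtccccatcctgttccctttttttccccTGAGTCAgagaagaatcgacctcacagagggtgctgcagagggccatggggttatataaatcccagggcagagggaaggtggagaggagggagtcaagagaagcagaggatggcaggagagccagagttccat
Cd209g: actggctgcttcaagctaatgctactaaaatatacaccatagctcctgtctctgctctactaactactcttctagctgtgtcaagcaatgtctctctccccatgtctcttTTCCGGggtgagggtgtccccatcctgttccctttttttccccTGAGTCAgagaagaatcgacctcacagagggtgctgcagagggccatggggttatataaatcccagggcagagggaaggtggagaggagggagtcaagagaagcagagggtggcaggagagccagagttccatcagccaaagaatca
Cd209a: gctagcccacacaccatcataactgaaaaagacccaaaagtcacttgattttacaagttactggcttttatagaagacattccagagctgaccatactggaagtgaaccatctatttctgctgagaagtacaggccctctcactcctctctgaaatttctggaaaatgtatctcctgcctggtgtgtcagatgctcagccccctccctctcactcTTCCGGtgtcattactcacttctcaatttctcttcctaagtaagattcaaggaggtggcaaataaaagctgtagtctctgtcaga
Cd209b: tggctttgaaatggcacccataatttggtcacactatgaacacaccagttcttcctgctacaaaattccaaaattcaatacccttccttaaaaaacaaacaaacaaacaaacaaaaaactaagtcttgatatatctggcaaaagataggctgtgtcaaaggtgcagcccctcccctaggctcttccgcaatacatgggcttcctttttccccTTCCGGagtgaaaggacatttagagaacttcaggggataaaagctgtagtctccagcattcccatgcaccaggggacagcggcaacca

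The motifs were chosen after the windows had been read and were searched on both strands. TTCCGG was present in 5 of the 7 windows (Cd209a, Cd209b, Cd209e, Cd209f and Cd209g) and in 14.9% of the 32817 RefSeq promoter windows. TGAGTCA was present in Cd209f and Cd209g, inside the stretch they share, and in 5.21% of all windows. The 2 motifs did not overlap. The spaced palindrome bound by STAT6 matched in Cd209e alone among the members and in 6.95% of all windows. These matches are descriptions of the letters in these windows and not of binding.

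Expression is given as TPM, transcript abundances that are corrected for transcript length and sum to 1000000 in every library, so that levels can be compared between genes. TPM keeps no read depth, and the depth of each library is unknown. Between 13200 and 17213 genes reached 1 TPM in a library. The defining genes of macrophages were present throughout, with a summed level of 12 pan-macrophage markers of 5753 to 23350 TPM. Some libraries carried RNA of tissues that lie beside the fat. In HFD 8 week replicate 3, 6 seminal vesicle genes summed to 117700 TPM, against at most 15.6 TPM in any other library. In HFD 20 week replicate 5, 6 germ cell genes summed to 11430 TPM, and they also reached 4677 and 5038 TPM in HFD 34 week replicates 1 and 2. The CHOW 34 week replicates 5, 6 and 7 had the adipocyte gene Adipoq at 1027, 5439 and 1486 TPM. Haemoglobin and other erythroid genes reached 267900 TPM in HFD 8 week replicate 6. Beside the values with all libraries, fits without 5 of these libraries (HFD 8 week replicate 3, HFD 20 week replicate 5 and CHOW 34 week replicates 5, 6 and 7) are given where they differ. At 34 weeks these fits leave out CHOW libraries only, and HFD replicates 1 and 2 stay in.

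Cd209f had the highest mean of the members in all 6 groups, and Cd209e had the lowest. In 2 libraries Cd209a was above Cd209f, at 45.02 against 36.9 TPM in CHOW 34 week replicate 1 and at 7.58 against 7.19 TPM in HFD 34 week replicate 1. In CHOW mice at 20 weeks the means were 287 ± 92.6 TPM (SD, n = 5) for Cd209f, 110.9 ± 32.4 for Cd209d, 85.9 ± 17.8 for Cd209g, 76.5 ± 21.6 for Cd209b, 60.3 ± 12.3 for Cd209a, 14.4 ± 2.82 for Cd209c and 4.41 ± 3.72 for Cd209e. The order of Cd209d above Cd209g held in 5 of 5 of these libraries, whereas Cd209g exceeded Cd209b in 3 of 5, so these neighbours did not differ beyond their spread. Cd209f made up 44.5% of the family's TPM in this group (39.3% to 47.2%), and 41.9% to 51.3% as a mean of the other 5 groups. The mean share of Cd209a ran from 7.23% in CHOW mice at 8 weeks to 18.6% in CHOW mice at 34 weeks, with up to 36.2% in a single library, and that of Cd209e from 0.200% in HFD to 0.712% in CHOW mice at 20 weeks. The summed family was 659 ± 90.1 TPM (SD, n = 4) in CHOW and 446 ± 157 (n = 6) in HFD mice at 8 weeks, 640 ± 172 (n = 5) and 97.2 ± 21.2 (n = 6) at 20 weeks, and 204 ± 145 (n = 7) and 75.2 ± 36.7 (n = 6) at 34 weeks. The values of 8 and 20 weeks and those of 34 weeks came as separate tables, so levels at 34 weeks are set beside the others only as values. Whether the libraries were also prepared or sequenced apart is not recorded in the labels.

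**Figure D1:**
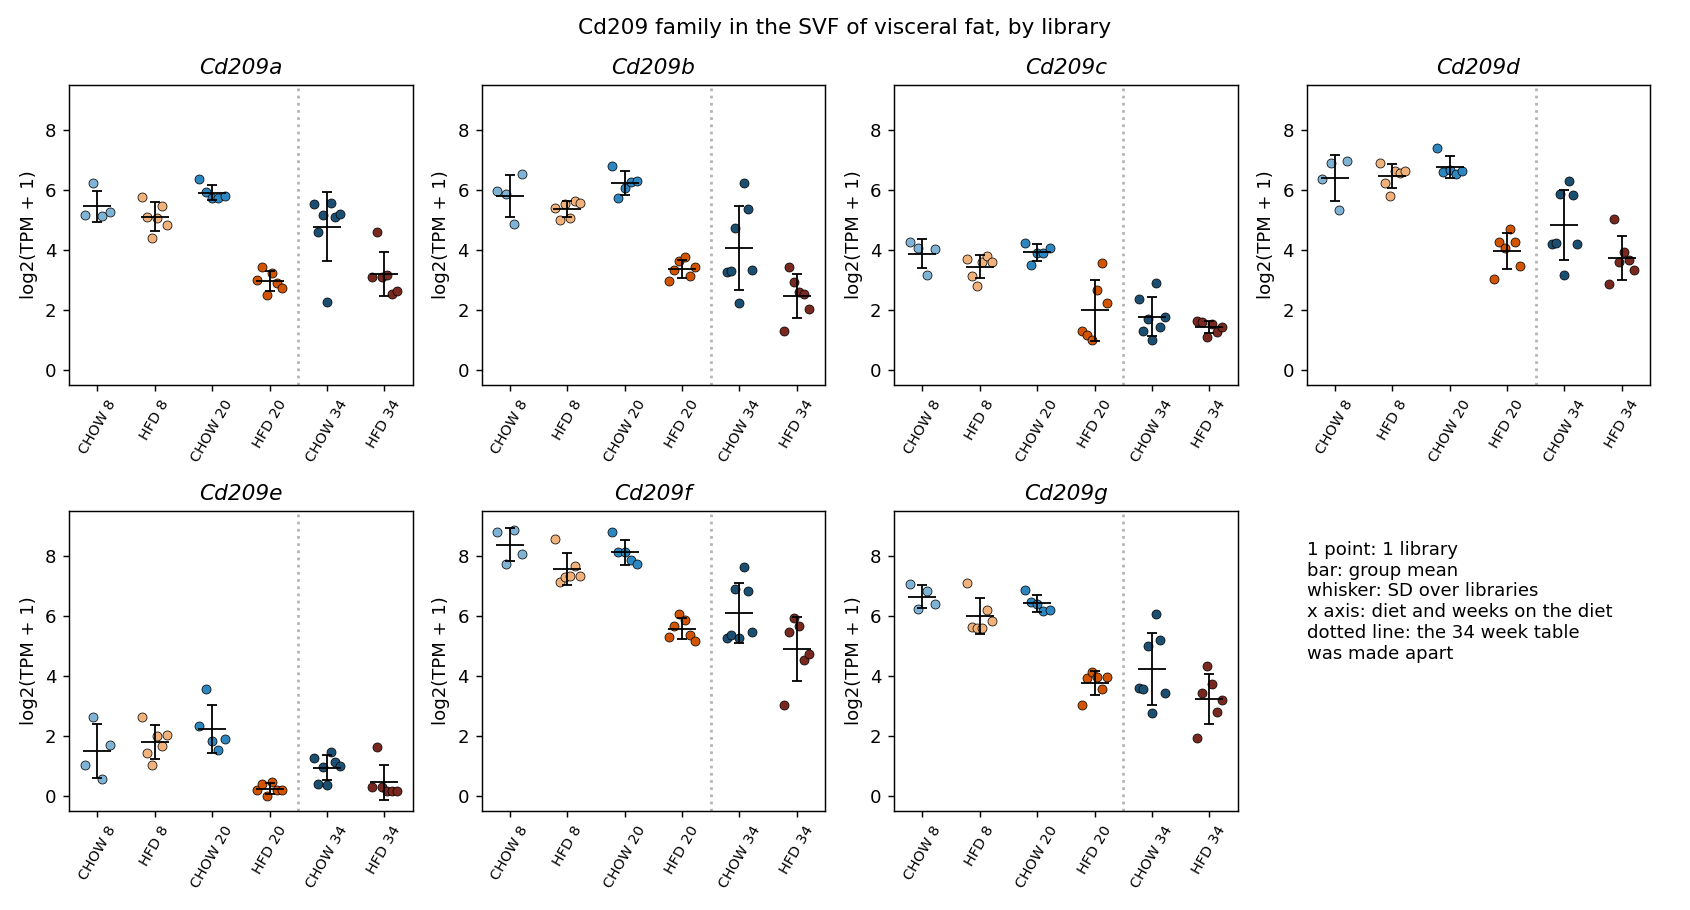
Level of each Cd209 gene by library. The y axis is log2(TPM + 1), the x axis gives diet and weeks of feeding, points are libraries, bars are group means and whiskers SDs. The dotted line sets off the 34 week libraries, whose values came as a separate table. In HFD mice at 20 weeks the points of all members but Cd209c lie below every point of the other 3 groups to the left of the dotted line, while at 34 weeks the ranges of both diets overlap for all members.

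The first question is how the receptors differed between HFD and CHOW mice at 20 weeks, when the members were lowest relative to CHOW. All 7 were lower in HFD mice and passed the threshold of 0.05 on the adjusted p in limma (Benjamini-Hochberg over all genes tested), where 4.99% of the 16808 genes tested were called lower and 14.3% in either direction. The libraries of both diets did not overlap in 6 of the 7, Cd209c being the exception, and 3.69% of all genes tested were lower without overlap. Nothing is read from these counts, since this contrast may have drawn attention to the family. Cd209a, mouse DC-SIGN, was at 81.4, 60.9, 52.4, 52.4 and 54.5 TPM in the 5 CHOW libraries. In the 6 HFD libraries it ran from 4.61 through a median of 6.72 to 9.84 TPM. Every HFD library was thus far below the lowest CHOW library, and the mean was 8.58 times higher on CHOW (log2 fold change of TPM + 1, HFD minus CHOW, -2.95 ± 0.24, SE). Cd209b (SIGN-R1) was at 110.5, 51.8, 66.8, 76.4 and 77.0 TPM on CHOW and from 6.78 to 12.6 TPM (median 9.47) on HFD, with a log2 fold change of -2.86 ± 0.24. Cd209d (SIGN-R3) was at 168.6, 95.4, 99.6, 91.9 and 98.9 TPM on CHOW and from 7.25 to 25.1 TPM (median 17.1) on HFD, a log2 fold change of -2.79 ± 0.30. In both genes CHOW replicate 1 was the highest library, and the difference did not rest on it, as the other CHOW libraries also stayed above all HFD libraries.

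Cd209f and Cd209g showed the same separation at 20 weeks. Cd209f was at 445, 276, 275, 233 and 208 TPM in the CHOW libraries and from 34.98 to 65.3 TPM (median 44.8) in the HFD libraries, with a mean 6.03 times higher on CHOW and a log2 fold change of -2.55 ± 0.26. Cd209g was at 115, 87.2, 83.7, 70.6 and 72.8 TPM and from 7.09 to 16.6 TPM (median 14.4), a log2 fold change of -2.66 ± 0.25. The ratio of Cd209f to Cd209g, whose transcripts partly share sequence, was 3.29 ± 0.36 (SD, n = 5) on CHOW and 3.81 ± 0.98 (n = 6) on HFD, so their fold changes were alike within the spread of that ratio. The 2 scarce members had smaller log2 fold changes, on a scale that understates the change of low genes. In plain TPM they differed from each other. The mean on CHOW was 3.65 times that on HFD for Cd209c, the smallest ratio of the members. For Cd209e it was 22.7 times, the largest, over an HFD mean of only 0.194 TPM. Cd209c was at 18.02, 10.3, 14.04, 13.9 and 15.6 TPM on CHOW. In the HFD libraries it was at 1.46, 1.25, 1.02, 5.33, 10.9 and 3.75 TPM for replicates 1 to 6, so that replicate 5 exceeded the lowest CHOW library. HFD replicate 5 is also the library with the most germ cell RNA, with Prm1, a protamine of sperm, at 3096 TPM. Prm1 was at 587 TPM in replicate 4, 715 TPM in replicate 3 and 0 in replicate 6, and its part in the Cd209c values was not tested. The log2 fold change of Cd209c was -1.93 ± 0.36 with all libraries and -2.25 in the fit without replicate 5 and HFD 8 week replicate 3. Cd209e was at 3.99, 10.9, 2.58, 1.86 and 2.71 TPM on CHOW and at no more than 0.388 TPM in any HFD library, with 1 of them listed at 0, and its log2 fold change was -1.98 ± 0.36.

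At 8 weeks none of the 7 members passed the threshold between diets. In limma 0.0238% of the genes tested were called at this time, all of them lower in HFD mice. An unadjusted p under 0.05 was reached by 2 members (Cd209f and Cd209g) and by 1630 of the 16808 genes tested. The libraries of both diets overlapped for all 7, beside 1.77% of all genes that were lower without overlap. Cd209a was at 34.8, 74.5, 34.0 and 37.8 TPM in the 4 CHOW libraries and from 20.1 to 54.0 TPM (median 32.9) in the 6 HFD libraries. Cd209d had nearly equal means of 91.4 ± 39.7 (SD, n = 4) and 90.3 ± 22.5 TPM (n = 6). Cd209f was at 438, 213, 465 and 265 TPM on CHOW and from 137 to 379 TPM (median 158) on HFD, a log2 fold change of -0.82 ± 0.28. For Cd209f and Cd209g, 5 of 6 HFD libraries lay below the lowest CHOW library (137 to 201 against 213 TPM, and 47.4 to 71.4 against 73.4 TPM), and HFD replicate 1 alone overlapped, at 379 and 137 TPM. The log2 fold changes of Cd209f, Cd209g, Cd209b, Cd209c and Cd209a were below 0, and those of Cd209d and Cd209e were 0.07 ± 0.32 and 0.31 ± 0.39. The median log2 fold change of the members was -0.44, beside -0.08 for all genes tested.

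Between 8 and 20 weeks the members did not pass the threshold in CHOW mice (0 of 7 in limma, with 0.613% of all genes called and 0.155% called lower). An unadjusted p under 0.05 was reached by 0 members and by 2104 of the 16808 genes tested. The log2 fold changes of the members ran from -0.24 in Cd209f to 0.74 in Cd209e. In HFD mice all 7 were lower at 20 than at 8 weeks and passed the threshold, where 2.65% of all genes tested were called lower and 8.78% in either direction. The libraries of 6 members did not overlap, beside 1.29% of all genes, and Cd209c again overlapped. Cd209a went from a mean of 35.2 ± 12.0 TPM (SD, n = 6) to 7.03 ± 1.90 (n = 6), a log2 fold change of -2.14 ± 0.23. Cd209b went from 41.0 ± 7.37 to 9.58 ± 2.16 TPM, and Cd209d from 90.3 ± 22.5 to 15.8 ± 6.42 TPM, with a log2 fold change of -2.497 ± 0.29, the lowest of the members here. Cd209f went from 198 ± 91.0 to 47.7 ± 12.0 TPM and Cd209g from 68.0 ± 34.8 to 13 ± 3.43 TPM. Erythroid genes were lower over the same time in 5 of 5 and adipocyte genes in 6 of 10, and lipid-associated macrophage genes higher in 8 of 10, and their part in the values was not tested. The 6 HFD libraries of 20 weeks enter this comparison, that between diets at 20 weeks and the interaction, so these results are not independent of each other. The order of the group means was CHOW 20 weeks, CHOW 8 weeks, HFD 8 weeks, HFD 20 weeks for Cd209a, Cd209b, Cd209c and Cd209d, CHOW 20 weeks, HFD 8 weeks, CHOW 8 weeks, HFD 20 weeks for Cd209e, and CHOW 8 weeks, CHOW 20 weeks, HFD 8 weeks, HFD 20 weeks for Cd209f and Cd209g. In that order the highest 3 groups overlapped with their neighbours for every member, and the step down to HFD at 20 weeks was the only one without overlap, in all members but Cd209c.

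The diet by time interaction, which is the HFD effect at 20 weeks minus that at 8 weeks, was negative for all 7 members, from -1.49 ± 0.52 in Cd209c to -2.86 ± 0.44 in Cd209d. It passed the threshold in Cd209a, Cd209b, Cd209d and Cd209g, while 0.137% of all genes tested were called in this direction and 0.297% in either. Cd209e (-2.29 ± 0.53) and Cd209f (-1.74 ± 0.38) did not pass it. The count ran from 3 to 6 when single libraries were left out. The call of Cd209g was lost without CHOW 8 week replicate 4, and Cd209e and Cd209f were also called without HFD 8 week replicate 2.

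**Figure D2:**
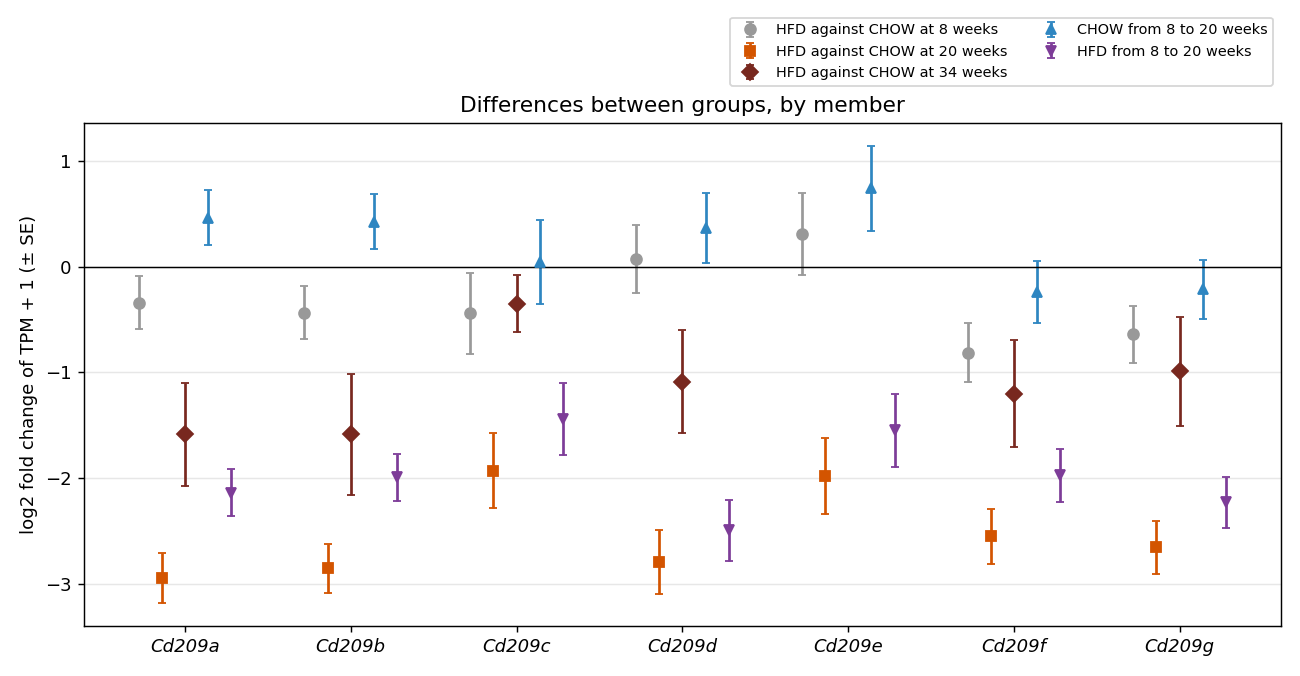
Differences between groups for each Cd209 gene, as log2 fold changes of TPM + 1 from limma with their SE. Symbols stand for the 5 comparisons named in the legend; Cd209e has no value at 34 weeks because it did not reach the minimum level there. The squares (diets at 20 weeks) run from -2.95 in Cd209a to -1.93 in Cd209c, and the diamonds (diets at 34 weeks) from -1.59 to -0.35 with wider errors.

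At 34 weeks 6 members were tested, Cd209e having too low a level (0.983 ± 0.54 TPM, SD, n = 7, on CHOW and 0.480 ± 0.78, n = 6, on HFD). All 6 had lower means on HFD and none passed the threshold in limma. An unadjusted p under 0.05 was reached by 4 of them (Cd209a, Cd209b, Cd209d and Cd209f) and by 1848 of all genes tested. Of the 13982 genes tested 0.243% were called, all of them higher, so 0% were called lower, and 0.2% were lower without overlap. The median log2 fold change of the members was -1.14, beside 0.10 for all genes tested. Cd209a ran from 3.88 through a median of 35.04 to 46.6 TPM in the 7 CHOW libraries and from 4.83 through 7.62 to 23.1 TPM in the 6 HFD libraries. Its log2 fold change was -1.59 ± 0.49. CHOW replicate 4 held the lowest value of all 13 libraries and HFD replicate 2 the highest of its group, and without CHOW replicate 4 Cd209a passed the threshold (log2 fold change -2.001). Cd209b ran from 3.71 through 9.19 to 74.4 TPM on CHOW and from 1.48 through 5.00 to 9.85 TPM on HFD, with a log2 fold change of -1.59 ± 0.57. Cd209f ran from 36.9 through 42.6 to 198 TPM on CHOW and from 7.19 through 34.5 to 60.2 TPM on HFD, with a log2 fold change of -1.20 ± 0.51. For Cd209b and Cd209f some CHOW libraries lay within the range of the HFD libraries. For Cd209a none did, as replicate 4 was below that range and replicate 2, at 23.15 TPM, was just above its upper end of 23.13 TPM.

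For Cd209a, Cd209b, Cd209d and Cd209g the ratio of the highest to the lowest library was larger among the CHOW libraries of 34 weeks than in any other group, which was not so for Cd209c, Cd209e and Cd209f. The family summed to 60.3 TPM in replicate 4, 103 in replicate 2, 118 in replicate 7, 124 in replicate 1, 269 in replicate 3, 280.1 in replicate 6 and 471 in replicate 5, and Cd209b varied 20.0-fold between the lowest and the highest library. Cd163, a haemoglobin scavenger receptor of resident macrophages, was at 19.6, 27.4, 21.7, 39.7, 73.0, 73.8 and 140.3 TPM in the same order of libraries, so that the 3 libraries with the most Cd209 RNA were also those with the most Cd163 RNA. The summed pan-macrophage markers did not follow this order, with 5753 TPM in replicate 6 and 23350 in replicate 3. Nor did the sum of 20 resident macrophage genes, at 8261 TPM in replicate 4, 5191 in replicate 6 and 11700 in replicate 5. Folr2, another of these genes, was at 509 TPM in replicate 4 and 194 TPM in replicate 6. Adipoq was high in replicates 5, 6 and 7 (1027, 5439 and 1486 TPM) and at 273 TPM in replicate 3, and its part in the spread was not tested. Over the 10 adipocyte genes the sums were 3112 to 39780 TPM on CHOW and 2978 to 6020 on HFD, with 0 genes called in limma and 9 lower at an unadjusted p under 0.05. That unadjusted threshold was passed in either direction by 1848 of all 13982 genes tested. Without replicates 5, 6 and 7 the log2 fold changes of the 6 members were nearer to 0, from -1.20 in Cd209a to -0.15 in Cd209c. This fit left out libraries of CHOW only, among them replicates 5 and 6 with the highest family sums. It kept HFD replicate 1, which had germ cell RNA and a family sum of 27.7 TPM, the lowest at 34 weeks.

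The members rose and fell together over the libraries. Over the 21 libraries of 8 and 20 weeks the Pearson correlation of log2(TPM + 1) between 2 members ran from 0.68 to 0.98 over the 21 pairs (median 0.86). Within groups the correlations were lower. When each library was taken as its deviation from its group mean, the median was 0.21, and only some pairs stayed close. These were Cd209f with Cd209g (0.87), Cd209b with Cd209d (0.66), Cd209a with Cd209e (0.66), Cd209a with Cd209d (0.57), Cd209d with Cd209e (0.53) and Cd209c with Cd209d (0.52). Cd209c and Cd209f were unrelated within groups (-0.05). Over the 13 libraries of 34 weeks the deviations themselves correlated with a median of 0.63, and Cd209b, Cd209d, Cd209f and Cd209g formed the closest set, with values of 0.81 to 0.96 among them. The correlations are descriptions over libraries that share a total of TPM. Cd209f and Cd209g also share transcript sequence, and its part in their correlation was not tested.

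**Figure D3:**
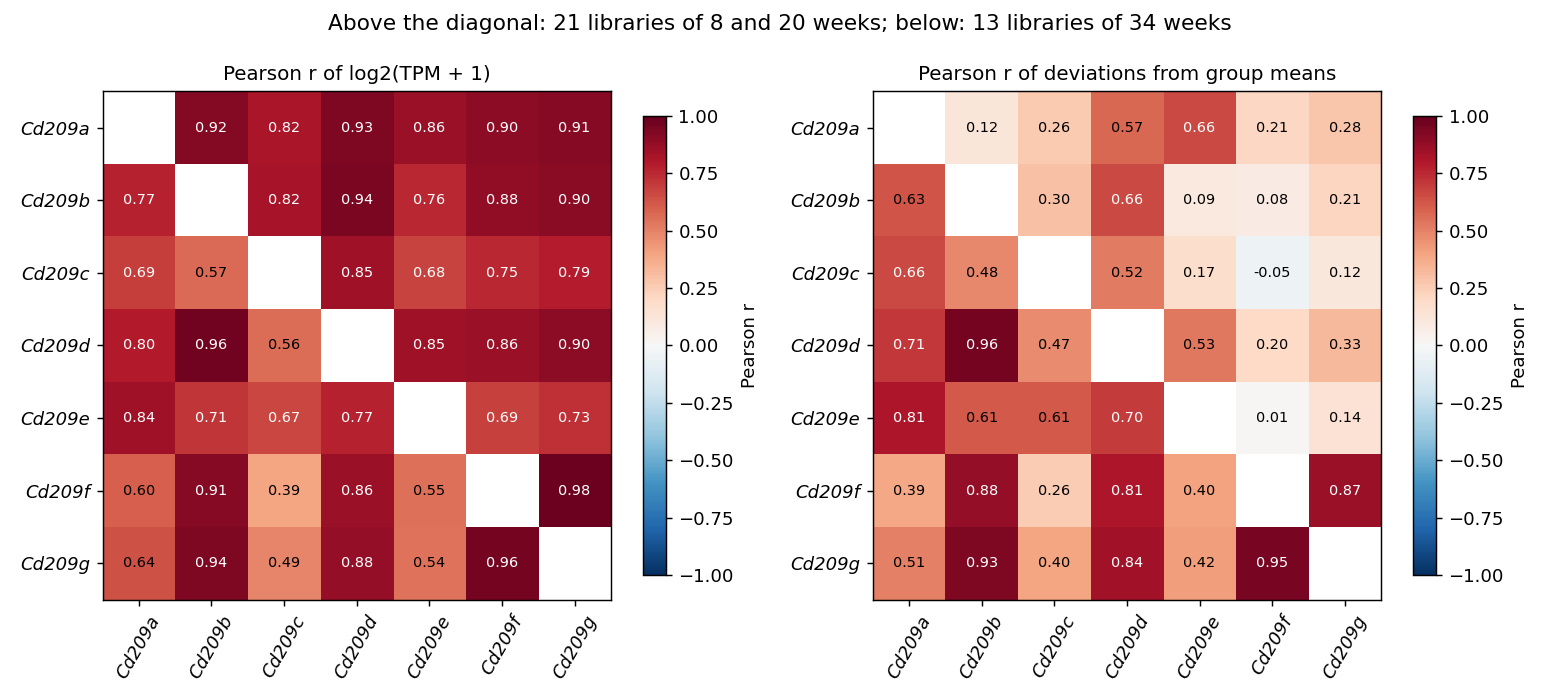
Pearson r between pairs of Cd209 genes, for log2(TPM + 1) on the left and for deviations from the group means on the right. Cells above the diagonal are over the 21 libraries of 8 and 20 weeks and cells below it over the 13 libraries of 34 weeks; Cd209f with Cd209g is high in all 4 places (0.98 and 0.96 on the left, 0.87 and 0.95 on the right).

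Outside the family, the genes with the most similar profiles were mostly genes of resident macrophages. Likeness was measured as the lower of the correlations over the 21 and over the 13 libraries, among 10279 genes with a mean of at least 5 TPM in both tables. Cd163 came first for Cd209b (0.95), Cd209d (0.90) and Cd209g (0.86) and second for Cd209f (0.87). Lyve1, a hyaluronan receptor, came first for Cd209f (0.88). Fcna, a secreted ficolin, was among the 3 closest genes of Cd209b, Cd209c and Cd209g. Cd209a differed in its neighbours, with Rasgrp4, a Ras activator of myeloid cells (0.86), Cbr2, a carbonyl reductase of resident macrophages (0.83), and Mgl2, the galactose-binding lectin CD301b of dendritic cells and macrophages (0.82). Cd209d was also close to Mgl2 (0.88) and to Ccl24, an eosinophil attractant (0.79), Cd209b to the gelatinase Mmp9 (0.81), Cd209f to F13a1 (0.82), and Cd209g to Lyve1 (0.83). Cd209c had no close neighbour, with Clec2i at 0.74, Fcna at 0.71 and the cofilin gene Cfl2 at 0.70. Within groups these relations were uneven. For Cd209f and Lyve1 the deviations from group means correlated at 0.50 over the 21 and 0.88 over the 13 libraries, and for Cd209b and Cd163 at 0.57 and 0.95. Over the 21 libraries the highest values were those of Cd209d with Mgl2 (0.90) and Cd209b with Fcna (0.84). Over the 13 these pairs were at 0.84 and 0.72. Cd209d with Cd163 was at 0.57 and 0.92, Cd209a with Rasgrp4 at 0.71 and 0.77, and Cd209a with Mgl2 at 0.70 and 0.76. Other pairs had little or no such relation over the 21 libraries, among them Cd209g with Cd163 (0.02), Cd209f with Cd163 (0.08), Cd209c with Fcna (-0.004) and Cd209b with Mmp9 (0.16), although over the 13 libraries these pairs were at 0.92, 0.85, 0.68 and 0.76.

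Ratios to these markers differed between the members. The ratio of Cd209b to Cd163 was 0.353 ± 0.082 (SD, n = 5) in CHOW and 0.244 ± 0.071 (n = 6) in HFD mice at 20 weeks, and 0.370 ± 0.141 (n = 7) and 0.319 ± 0.112 (n = 6) at 34 weeks. The ratio of Cd209f to Lyve1 was 3.58 ± 1.48 and 2.56 ± 0.23 at 20 weeks, and 4.88 ± 1.68 and 3.21 ± 0.87 at 34 weeks. The libraries of both diets overlapped in each of these ratios. The ratio of Cd209a to Mgl2 was 0.614 ± 0.128 (SD, n = 5) in CHOW and 0.266 ± 0.080 (n = 6) in HFD mice at 20 weeks, without overlap (0.455 to 0.777 and 0.197 to 0.405). At 8 weeks the ratio was 0.333 ± 0.190 (n = 4) and 0.167 ± 0.018 (n = 6), also without overlap (0.194 to 0.606 and 0.145 to 0.186), so on HFD its mean was higher at 20 than at 8 weeks. At 34 weeks it was 0.693 ± 0.287 (n = 7) and 0.564 ± 0.317 (n = 6), and the diets overlapped. Against pan-macrophage RNA the family did not keep its proportion. It summed to 7.75% ± 2.22 (SD, n = 5) of the TPM of the 12 pan-macrophage markers in CHOW mice at 20 weeks, with a range of 3.99% to 9.54%, and to 0.663% ± 0.246 (n = 6) in HFD mice, with a range of 0.369% to 1.08%. At 8 weeks the shares were 6.41% ± 1.55 (n = 4) and 4.57% ± 1.72 (n = 6). The pairs of genes were taken from the likeness measure, so the ratios describe these libraries and are no separate evidence.

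**Figure D4:**
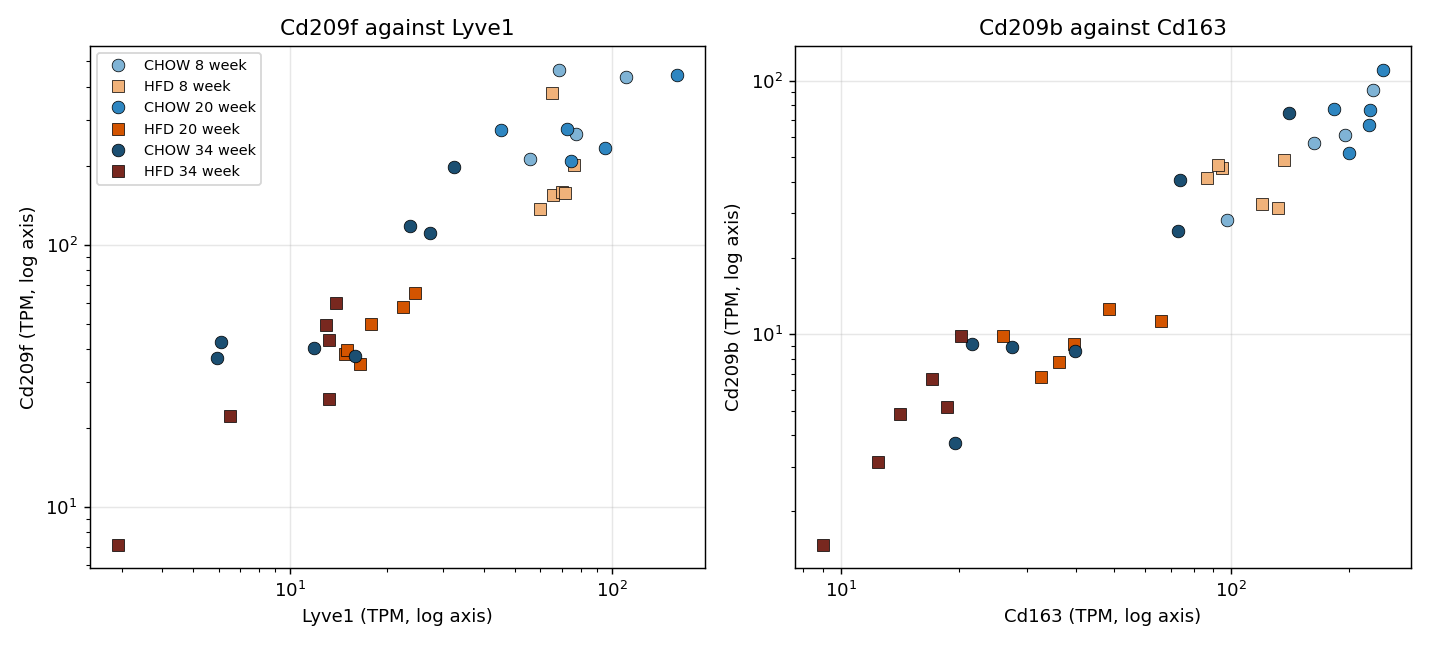
Cd209f against Lyve1 and Cd209b against Cd163, both in TPM on log axes, with 1 point per library, circles for CHOW and squares for HFD. The values of the 34 week libraries come from a separate table. Points of all 6 groups lie along a common band in each panel, which in the first runs from HFD 34 week replicate 1 at the lower left (7.19 TPM Cd209f and 2.92 TPM Lyve1) to CHOW 20 week replicate 1 at the upper right (445 TPM Cd209f and 160 TPM Lyve1).

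Other lectins of the C-type family did not move in 1 direction at 20 weeks. In that comparison 4.99% of all genes tested were called lower and 14.3% in either direction. Of 29 listed genes 26 were tested, 3 were lower and 4 higher in HFD mice, and their median log2 fold change was -0.05, beside 0.08 for all genes. The lower ones were Mgl2 (-1.86 ± 0.32, adjusted p = 0.000852 in limma), its neighbour Clec10a, which encodes CD301a (-0.90 ± 0.22, adjusted p = 0.00909), and Ly75, the dendritic cell receptor DEC-205 (-0.50 ± 0.17, adjusted p = 0.0498). Mgl2 fell from 102.6 ± 33.6 TPM (SD, n = 5) on CHOW to 27.8 ± 9.30 (n = 6) on HFD. The call of Ly75 was lost in 15 of 23 alternatives, among them leaving out each of the 5 CHOW libraries. The 3 with the highest fold change were Cd72, an inhibitory receptor best known from B cells (2.81 ± 0.43, adjusted p = 0.000281), Clec12a, an inhibitory receptor of myeloid cells (1.61 ± 0.30, adjusted p = 0.00162), and Clec7a, the beta-glucan receptor dectin-1 (1.45 ± 0.37, adjusted p = 0.013). Mrc1, the macrophage mannose receptor and like DC-SIGN a receptor for mannose, was at 263 ± 92.7 TPM on CHOW and 184 ± 60.6 on HFD and did not pass the threshold (-0.51 ± 0.23, adjusted p = 0.133). For Mgl2 the interaction also passed it (-2.35 ± 0.47, adjusted p = 0.0317), and that call was lost in 14 of 33 alternatives. At 34 weeks none of 23 tested lectins passed in limma (6 had an unadjusted p under 0.05, beside 1848 of all 13982 genes tested). Mgl2 had a log2 fold change of -1.26 ± 0.42 there (adjusted p = 0.239).

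Among 12 genes of the signalling complex known below DC-SIGN, 2 were lower and 1 higher in HFD mice at 20 weeks. Of all genes tested, 4.99% were called lower in this comparison and 14.3% in either direction. The 12 genes had a median log2 fold change of -0.29, beside 0.08 for all genes. Arhgef12, a guanine nucleotide exchange factor (-0.74 ± 0.20, adjusted p = 0.0198 in limma), and Cnksr1, a scaffold of the Raf pathway (-0.73 ± 0.20, adjusted p = 0.0211), were lower. Syk, a kinase used by many immune receptors, was higher (0.81 ± 0.25, adjusted p = 0.0362). The call of Syk was lost in 8 of 24 alternatives, and its direction turned in 1 more, the fit with the adipocyte score. From 8 to 20 weeks on HFD, where 8.78% of all genes tested were called, Lsp1, a leukocyte actin-binding protein, was lower (-0.97 ± 0.20, adjusted p = 0.00376). Ikbke, Rela and Bcl3 of the NF-kB pathway were higher (1.19, 0.90 and 0.64), while Rela was also higher on CHOW over that time (0.99 ± 0.21, adjusted p = 0.0355). The call of Ikbke was lost in 7 of 25 alternatives, and its direction turned in 1 more. That of Rela on CHOW was lost in 9 of 22. A further list held 16 genes of ligands and of the interleukin-4 pathway, which is known to induce DC-SIGN. Between diets at 20 weeks their median log2 fold change was -0.10, beside 0.08 for all genes. Of the 16 genes 2 were called, both lower, and nothing is read from this count. These were Irf4, a transcription factor of dendritic cells and alternatively activated macrophages (-0.85 ± 0.23, adjusted p = 0.0178), and Il13ra1, a receptor chain shared by IL-4 and IL-13 (-0.85 ± 0.21, adjusted p = 0.0101). The adhesion ligand Icam1 was higher at 20 than at 8 weeks on both diets (1.40 ± 0.26 on CHOW, adjusted p = 0.0154, and 1.53 ± 0.23 on HFD, adjusted p = 0.000174), and Ceacam1 was lower on HFD (-0.70 ± 0.17, adjusted p = 0.013). At 34 weeks Il13 was higher in HFD mice (2.29 ± 0.38, adjusted p = 0.0358), a call lost in 14 of 24 alternatives, which included leaving out any of 9 single libraries.

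In HFD mice at 20 weeks, 4.99% of all genes tested were called lower and 14.3% in either direction. Of 20 listed resident macrophage genes, 8 were lower and 2 higher. The lower ones included Cd163 (-2.41 ± 0.22, adjusted p = 1.14e-06 in limma), Ccl24 (-2.13 ± 0.29, adjusted p = 0.00012) and Lyve1 (-2.12 ± 0.23, adjusted p = 1.14e-05), with Fcna, Timd4, F13a1, Cbr2 and Ltc4s between -1.88 and -1.24. Cd163 was at 216 ± 24.1 TPM (SD, n = 5) on CHOW and 41.5 ± 14.3 (n = 6) on HFD. Igf1 (1.08 ± 0.22, adjusted p = 0.00265) and Selenop (0.60 ± 0.19, adjusted p = 0.0409) were higher, and Selenop lost its call in 10 of 24 alternatives. Folr2, Mrc1, Maf, Stab1, Vsig4, Pf4 and the other listed genes did not pass the threshold, with log2 fold changes between -0.56 and 0.37, so the list as a whole did not go 1 way. The interaction passed for Lyve1 (-1.96 ± 0.34, adjusted p = 0.0155) and Cd163 (-1.82 ± 0.32, adjusted p = 0.0155), beside 0.137% of all genes called lower and 0.297% in either direction. From 8 to 20 weeks on HFD 8 of the 20 were lower and 2 higher, beside 2.65% of all genes called lower and 8.78% in either direction. Ccl24, Lyve1 and Ltc4s were lowest (-2.06, -1.84 and -1.53), and Igf1 and Vsig4 were higher (0.94 and 1.32). The call of Vsig4 was lost in 13 of 25 alternatives. At 34 weeks none of the 20 passed in limma (6 had an unadjusted p under 0.05, beside 1848 of all 13982 genes tested). Cd163 was at -1.54 ± 0.41 there (adjusted p = 0.149).

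Markers of other cells moved at 20 weeks in the same libraries. The shares of all genes tested were 4.99% called lower and 14.3% called in either direction. Of 12 pan-macrophage genes 6 were higher in HFD mice and none lower, with sums of 6226 to 14840 TPM on CHOW and 11520 to 19750 on HFD, and of 10 genes of lipid-associated macrophages 9 were higher and none lower (3961 to 8418 and 11750 to 18180 TPM). In the list of 11 genes of conventional dendritic cells (cDC2), which are a known site of Cd209a, 5 were lower and 2 higher. Ccl17, a chemokine of dendritic cells, was lower (-2.47 ± 0.47, adjusted p = 0.00193 in limma), as were Dpp4, Kmo, Clec10a and Irf4, while Itgax (2.94 ± 0.53, adjusted p = 0.00116) and Sirpa, both also expressed by macrophages, were higher, and Flt3 and Zbtb46, which are more specific to dendritic cells, did not pass (-0.84, adjusted p = 0.0833, and -0.63, adjusted p = 0.0698). Germ cell genes summed to 0.337 to 192 TPM on CHOW and 7.21 to 11430 on HFD, with none of 6 called in limma and 4 higher at an unadjusted p under 0.05. None of 7 cDC1 genes was called (1 at an unadjusted p under 0.05) and none of 6 B cell genes (0). Of all 16808 genes tested 5121 had an unadjusted p under 0.05 in this comparison. Adipocyte genes were lower in 6 of 10 (5035 to 8323 TPM on CHOW and 3433 to 5557 on HFD), erythroid genes in 5 of 5 (27330 to 130000 and 12620 to 30450), mesothelial genes in 5 of 5 (174 to 582 and 56.6 to 178) and monocyte genes in 3 of 9 (601 to 1135 and 539 to 1144). None of the genes in these lists was at 0 in all libraries of a group. The part of these cells in the Cd209 values was not tested. With the adipocyte score in the fit 5 members were called at 20 weeks (all but Cd209c and Cd209e), beside 86 of all 16808 genes, and with the pan-macrophage score 6 (all but Cd209c), beside 586, against 2405 with neither score.

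**Figure D5:**
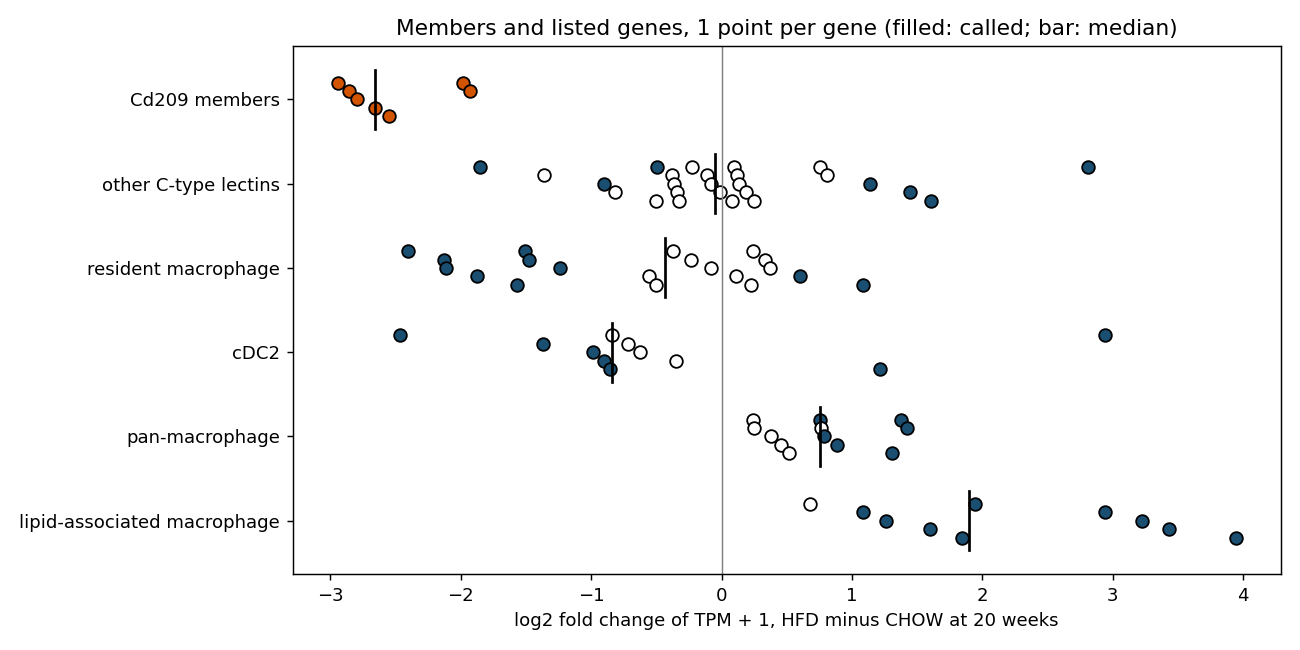
Log2 fold changes of TPM + 1 between HFD and CHOW mice at 20 weeks, with 1 point per gene, rows for the 7 Cd209 genes and 5 gene lists, filled points for genes past the threshold and a bar at each median. The Cd209 points lie between -2.95 and -1.93, the other C-type lectins spread to both sides of 0 around a median of -0.05, and the lipid-associated macrophage genes have a median of 1.90.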

How the data were processed

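SVF RNA was made into 34 stranded mRNA libraries. Per the study's methods, Trimmomatic removed adapters and poor bases, FastQC and MultiQC served for quality control, and Salmon estimated abundances against gencode M10 (coding transcripts and lncRNAs), later summed to genes. Tool versions: not given in the sources used here. Deposited TPM values came as 2 tables, of 21 libraries (8 and 20 weeks) and 13 libraries (34 weeks). Since TPM is relative, a gene's value also depends on what the remaining genes take up. The authors' differential expression on counts (DESeq2) is not used here.

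Groups and replicate numbers came from the sample titles. Of 32098 gene IDs, 31791 were matched to symbols in gencode M21 after the version was dropped. A gene was tested if 4 libraries (8 and 20 weeks) or 6 libraries (34 weeks) had it at 1 TPM or above, and testing was done on log2(TPM + 1) with limma 3.58.1 in R 4.3.3 (group means, contrasts, empirical Bayes with a trend, two-sided), with Benjamini-Hochberg adjustment over all genes of each of 6 comparisons and a threshold of 0.05. Both tables were fitted apart, and the fit was tested on simulated data. Log2 fold changes refer to TPM + 1 and so are too small for scarce genes. Coding sequences were aligned globally, and identity is over aligned bases unless stated.

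The members and gene lists were chosen with earlier results of these data known. Named were the 7 members, up to 3 called genes in each direction in 4 lists (C-type lectins, signalling, ligands and interleukin-4 pathway, resident macrophage), the 3 genes of highest likeness per member, and markers of other cells that moved with a result. Fcna, Timd4, F13a1, Cbr2, Ltc4s and the resident macrophage genes listed as not called were named beyond this, after their values were seen. Alternatives were other pseudocounts, filters, scalings, weights, covariates and fits, a replicate block, and libraries left out. The values of 1 listed gene are not reported here.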

Additional observations from a re-analysis of the deposited data

Results flagged for a closer look

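Among 42 sets of values (7 members in 6 groups), 6 had a highest or lowest library whose gap to its nearest neighbour was too large a part of the group's range by Dixon's criterion at 95%, which chance alone passes in about 1 of 20 such sets. Cd209a was at 74.5 TPM in CHOW 8 week replicate 2 (34.0 to 37.8 in the others), at 3.88 TPM in CHOW 34 week replicate 4 (23.1 TPM or more in the others) and at 23.1 TPM in HFD 34 week replicate 2 (4.83 to 8.01). The last library also stood out for Cd209e, with 2.07 TPM beside 0.119 to 0.226 TPM. Cd209d was at 168.6 TPM in CHOW 20 week replicate 1 (91.9 to 99.6) and Cd209f at 379 TPM in HFD 8 week replicate 1 (137 to 201).

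By the interaction term of limma the diets were further apart after 20 weeks than after 8 in 4 members, with a difference of log2 fold changes of -2.61 ± 0.35 (SE) in Cd209a, -2.42 ± 0.34 in Cd209b, -2.86 ± 0.44 in Cd209d and -2.02 ± 0.37 in Cd209g. The direction was the same in all 7 members. These are descriptions, since the family was chosen with results of these data known.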

How the results depend on the processing

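No member changed direction where it was called. At 20 weeks 7 members were called with every single library left out, and 5 to 7 under the other alternatives. Under those other alternatives the calls among all genes ran from 86 (adipocyte score) to 5092 (sample quality weights), against 2405. The number called at 34 weeks was 1 with sample quality weights (Cd209a) and 0 to 1 when single libraries were left out, against 0. From 8 to 20 weeks it was 1 on CHOW with the adipocyte score as covariate (Cd209b), against 0, and 4 on HFD (Cd209a, Cd209b, Cd209f and Cd209g), against 7. For the interaction it was 7 with sample quality weights and 3 to 6 with single libraries left out, against 4. The calls among all genes moved as well. With sample quality weights they were 294 at 34 weeks, against 34, and 400 for the interaction, against 50. With the adipocyte score they were 114 on CHOW from 8 to 20 weeks, against 103, and 143 on HFD, against 1475. Nothing is read from the member counts. With the pseudocount at 5 TPM the log2 fold change of Cd209e at 20 weeks was -0.79, and at 0.1 TPM it was -3.81.

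The cause of these shifts was not tested. The labels do not say whether the replicate numbers pair the libraries. Same-numbered libraries of both diets had deviations that correlated above 0.1 in 6 of 15 pairs (range -0.11 to 0.21). Libraries with different numbers were not compared, so these values cannot decide it. With the replicate block 7 members were called at 20 weeks, 7 on HFD from 8 to 20 weeks, 5 for the interaction and 0 in the other 3 comparisons. Among all genes the block gave 3597 calls at 20 weeks, 1966 on HFD from 8 to 20 weeks and 32 for the interaction. It gave 17 at 8 weeks, 0 at 34 weeks and 71 on CHOW from 8 to 20 weeks.

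Of 47 calls of named list genes, 9 held with the adipocyte score and 26 with the pan-macrophage score as covariate. With the adipocyte score Syk at 20 weeks turned to -0.032 (adjusted p = 0.973 in limma) and Ikbke on HFD over time to -0.015 (adjusted p = 0.993). Cd163, Lyve1, Cbr2 and F13a1 at 20 weeks passed under all alternatives run.

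With quantile normalization the median of all genes moved from 0.08 to -0.05 at 20 weeks, from 0.09 to -0.06 on HFD over time, from 0.10 to -0.004 at 34 weeks and from 0.18 to -0.02 for the interaction. The share of all calls that were higher went from 65.1% to 47.1% at 20 weeks, from 69.8% to 40.8% on HFD over time (59.1% with median-ratio scaling), from 54% to 17.3% for the interaction (35.3%), from 100% to 89.5% at 34 weeks, and from 0% to 57.1% at 8 weeks (62.5%). TPM keeps no depth, so counting error is unknown, which bears most on Cd209c and Cd209e.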
